A study of Mus musculus with 26 samples.

Results

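Genes that mark club cells, the secretory cells of the small airways, were followed in left lungs of mice exposed to ozone (O3): Scgb1a1, Scgb3a1, Scgb3a2, Cyp2f2, Cbr2 and Aldh1a1. They are 6 of the 12394 genes measured, were chosen by name as club cell genes with earlier results of these data known, and each has 1 probe set with a single gene symbol. Their levels were read as deposited log2 values on 25 of 26 Affymetrix mouse arrays.

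The mice were male Il10-/- mice of strain B6.129P2-Il10tmlCgn/J (the labels' spelling), which carry a targeted Il10 allele throughout the body, and male Il10+/+ mice of strain C57BL/6. Both were 6-8 weeks old. Il10 encodes interleukin-10, an anti-inflammatory cytokine. Mice breathed filtered air for 24 or 48 hr, or 0.3 ppm O3 for 24, 48 or 72 hr. In Il10-/- mice there were 4 air arrays (2 of each air time), and 2, 3 and 3 arrays at 24, 48 and 72 hr of O3. In Il10+/+ mice there were 4 air arrays and 3 arrays at each O3 time. Air of 24 and 48 hr was pooled within a genotype, so the 3 O3 times share their air arrays and 72 hr of O3 was set against air of shorter exposures. The remaining array of Il10-/- mice at 24 hr of O3, replicate 2, was left out of the comparisons, and its values are given separately. The design asks whether O3 changed gene expression, and whether the change differed between the genotypes.

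The targeted gene checks the labels only in part, because the place of its probe set relative to the deletion is not given in the sources used here. The Il10 probe set was at 3.92 to 4.25 in Il10+/+ mice. It was at 6.29 to 7.71 on the Il10-/- arrays, except the library labelled Il10-/- air 48 hr replicate 1, at 3.87. Without that library 0 of 6 members passed in any comparison. The changes of Cyp2f2, Cbr2 and Aldh1a1 over the 3 times in Il10-/- mice were then -0.18, -0.10 and -0.16. Array medians were 6.54 to 6.68, the lowest correlation between any 2 of the 25 arrays was 0.965, and no pair was identical, with a highest correlation of 0.996.

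Club cells line the bronchioles and make up most of the secretory epithelium there in the mouse. They release secretoglobins, small secreted proteins of the airway lining fluid, and they carry much of the metabolism of inhaled chemicals in the lung. They also renew themselves and give rise to ciliated cells after injury. Inhaled O3 reacts first with the airway lining fluid and the epithelium under it.

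In whole lung RNA the 6 genes did not change detectably with O3 or with genotype. Of the 6 genes, 0 passed an adjusted p of 0.05 in any of 17 comparisons (limma, Benjamini-Hochberg adjustment over all genes), and the lowest adjusted p was 0.269. In 3 of these comparisons 1 member each had an unadjusted p under 0.05. All members but Scgb3a1 had narrow ranges, and their single-time changes from air lay between -0.25 and 0.07 on the log2 scale, with 95% intervals reaching from -0.48 to 0.25. These 5 genes lie near the top of the scale, with 2 brighter probe sets for Scgb1a1, 5 to 23 for Cbr2, 9 to 47 for Cyp2f2, 19 to 59 for Scgb3a2 and 74 to 173 for Aldh1a1 on an array, and how far that place narrowed their ranges was not tested. Scgb3a1 spanned 5.37 log2 units over the 25 arrays, within groups as much as between them, so changes of severalfold could not be detected in it. Since the tissue was measured in bulk, fewer club cells and less RNA per club cell cannot be told apart.

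Promoters are shown for the 3 enzymes, whose levels varied together from array to array, and for Scgb3a1, which varied the most. RefSeq promoters of 300 bases, 250 before to 50 after a listed start in GRCm38.p6, were matched by symbol for 4 of the 6 genes, 5 promoters in all. The downstream start of Aldh1a1 lies inside the gene, which spans chr19:20492583-20643463. No promoter is shown for Scgb1a1 and Scgb3a2. The promoters were searched on both strands for 3 motifs of factors that act in airway epithelium: TTNCNNAA (C/EBP), TGTTTNC (forkhead) and CNCTCAAG (NKX2-1). Capitals mark a match, and a match on the opposite strand is capitalised as it reads on the printed strand. The promoters are Cyp2f2 at chr7:27119705-27120004 on the + strand, Cbr2 at chr11:120731972-120732271 on the - strand, Aldh1a1 at chr19:20492333-20492632 and chr19:20601718-20602017 on the + strand, and Scgb3a1 at chr11:49663345-49663644 on the + strand.
Cyp2f2: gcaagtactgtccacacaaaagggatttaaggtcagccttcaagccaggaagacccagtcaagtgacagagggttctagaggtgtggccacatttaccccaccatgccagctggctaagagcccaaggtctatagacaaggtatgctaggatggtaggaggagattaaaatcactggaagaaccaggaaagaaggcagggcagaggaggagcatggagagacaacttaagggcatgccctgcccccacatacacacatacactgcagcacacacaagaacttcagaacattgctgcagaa
Cbr2: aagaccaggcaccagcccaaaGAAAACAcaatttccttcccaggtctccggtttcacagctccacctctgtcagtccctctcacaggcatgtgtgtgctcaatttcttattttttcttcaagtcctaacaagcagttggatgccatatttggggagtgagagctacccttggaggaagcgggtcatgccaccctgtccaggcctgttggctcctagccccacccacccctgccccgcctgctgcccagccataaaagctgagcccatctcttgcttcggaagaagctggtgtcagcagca
Aldh1a1, start upstream: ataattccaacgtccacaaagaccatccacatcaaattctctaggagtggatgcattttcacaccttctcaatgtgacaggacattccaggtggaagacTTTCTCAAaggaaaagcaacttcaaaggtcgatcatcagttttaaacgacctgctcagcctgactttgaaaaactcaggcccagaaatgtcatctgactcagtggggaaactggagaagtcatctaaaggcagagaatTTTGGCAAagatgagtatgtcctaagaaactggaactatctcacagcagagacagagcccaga
Aldh1a1, start downstream: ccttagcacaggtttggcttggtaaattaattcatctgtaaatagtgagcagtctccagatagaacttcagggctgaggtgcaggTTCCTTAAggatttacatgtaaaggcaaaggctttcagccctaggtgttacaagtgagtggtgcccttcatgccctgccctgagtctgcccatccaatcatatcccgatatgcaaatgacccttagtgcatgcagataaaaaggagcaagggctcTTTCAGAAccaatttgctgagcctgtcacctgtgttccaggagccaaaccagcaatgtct
Scgb3a1: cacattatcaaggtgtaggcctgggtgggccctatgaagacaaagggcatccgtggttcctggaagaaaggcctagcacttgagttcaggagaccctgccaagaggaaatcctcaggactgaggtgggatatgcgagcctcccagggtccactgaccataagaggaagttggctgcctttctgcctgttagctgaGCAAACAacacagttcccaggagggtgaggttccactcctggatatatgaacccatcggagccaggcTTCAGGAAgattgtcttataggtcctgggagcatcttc
The C/EBP letters were found in 3 of the 5 promoters, both of Aldh1a1 and that of Scgb3a1, against 40.7% of 32851 promoters of all genes. The forkhead letters were found in 2, Cbr2 and Scgb3a1, against 20.5% of all promoters. The NKX2-1 letters were in 0 of the 5, against 4.41% of all promoters, and the Cyp2f2 promoter held none of the 3 motifs. No motif overlapped another in these windows. None of the 3 motifs was found in the promoters of all 3 enzymes.

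Scgb1a1 encodes secretoglobin 1A1, the main secreted protein of club cells. In Il10-/- mice its log2 values were 14.18, 14.39, 14.08 and 14.23 in air, 14.13 and 14.39 at 24 hr of O3, 14.26, 14.18 and 14.33 at 48 hr, and 14.23, 14.13 and 14.40 at 72 hr. In Il10+/+ mice they were 14.23, 14.13, 14.26 and 14.26 in air, 14.21, 14.18 and 14.26 at 24 hr, 14.15, 14.17 and 14.34 at 48 hr, and 14.16, 14.16 and 14.27 at 72 hr. Every group overlapped every other, and the whole span over the 25 arrays was 0.32. Of all genes, 98.7% had a wider span. This probe set was near the top of the scale. Its distance to the highest value of an array was 0.09 to 0.44, with 2 brighter probe sets on every array. On 4 arrays it held the same value, 14.2617, among them both Il10+/+ air 48 hr arrays. It had 21 distinct values over the 25 arrays. How far its place on the scale set these values was not tested. Over the 3 O3 times, the change from air was 0.04 (95% interval -0.11 to 0.19, adjusted p = 0.815) in Il10-/- mice and -0.01 (-0.15 to 0.14, adjusted p = 0.975) in Il10+/+ mice by limma.

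Scgb3a2, another secretoglobin of the conducting airways, had a narrow range too. Its log2 values in Il10-/- mice were 13.49, 13.60, 13.37 and 13.59 in air, 13.20 and 13.37 at 24 hr of O3, 13.40, 13.42 and 13.50 at 48 hr, and 13.47, 13.33 and 13.55 at 72 hr. In Il10+/+ mice they were 13.40, 13.48, 13.63 and 13.58 in air, 13.38, 13.64 and 13.22 at 24 hr, 13.27, 13.45 and 13.70 at 48 hr, and 13.40, 13.49 and 13.57 at 72 hr. The lowest value of all 25 arrays was on an Il10-/- array at 24 hr. The change there was -0.22 (95% interval -0.48 to 0.03, adjusted p = 0.346). Over the 3 times it was -0.12 (-0.30 to 0.06, adjusted p = 0.477) in Il10-/- mice and -0.06 (-0.24 to 0.11, adjusted p = 0.786) in Il10+/+ mice by limma.

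Scgb3a1 encodes a secretoglobin of the larger airways that is also made in mucous cells. Log2 values of Scgb3a1 in Il10-/- mice were 12.56, 11.61, 12.10 and 12.70 in air, 11.29 and 12.80 at 24 hr of O3, 9.69, 12.14 and 12.08 at 48 hr, and 11.81, 10.58 and 12.52 at 72 hr. In Il10+/+ mice they were 9.94, 9.80, 12.87 and 11.99 in air, 11.32, 13.17 and 7.80 at 24 hr, 11.47, 11.79 and 12.05 at 48 hr, and 12.08, 12.61 and 12.00 at 72 hr. The lowest and the highest of the 25 arrays, 41.3-fold apart, were replicates of the same group, Il10+/+ mice at 24 hr. Its residual SD within groups was 1.33, the 7th largest of all genes, while the other members had 0.0887 to 0.140 and the median of all genes was 0.165. The low air values of Il10+/+ mice were both at 24 hr, and those at 48 hr were 12.87 and 11.99.

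With this spread, the tests of Scgb3a1 had wide intervals. Its change over the 3 O3 times was -0.58 (95% interval -2.11 to 0.95, adjusted p = 0.728) in Il10-/- mice and 0.44 (-1.05 to 1.93, adjusted p = 0.832) in Il10+/+ mice by limma. At single times the changes ran from -0.94 (48 hr in Il10-/- mice) to 1.08 (72 hr in Il10+/+ mice), with intervals reaching from -2.84 to 2.98. The choice of air arrays turned 2 of these signs: against air of the same exposure time, Il10+/+ mice had 0.90 at 24 hr and -0.66 at 48 hr, where pooled air gave -0.38 and 0.62.

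**Figure D1:**
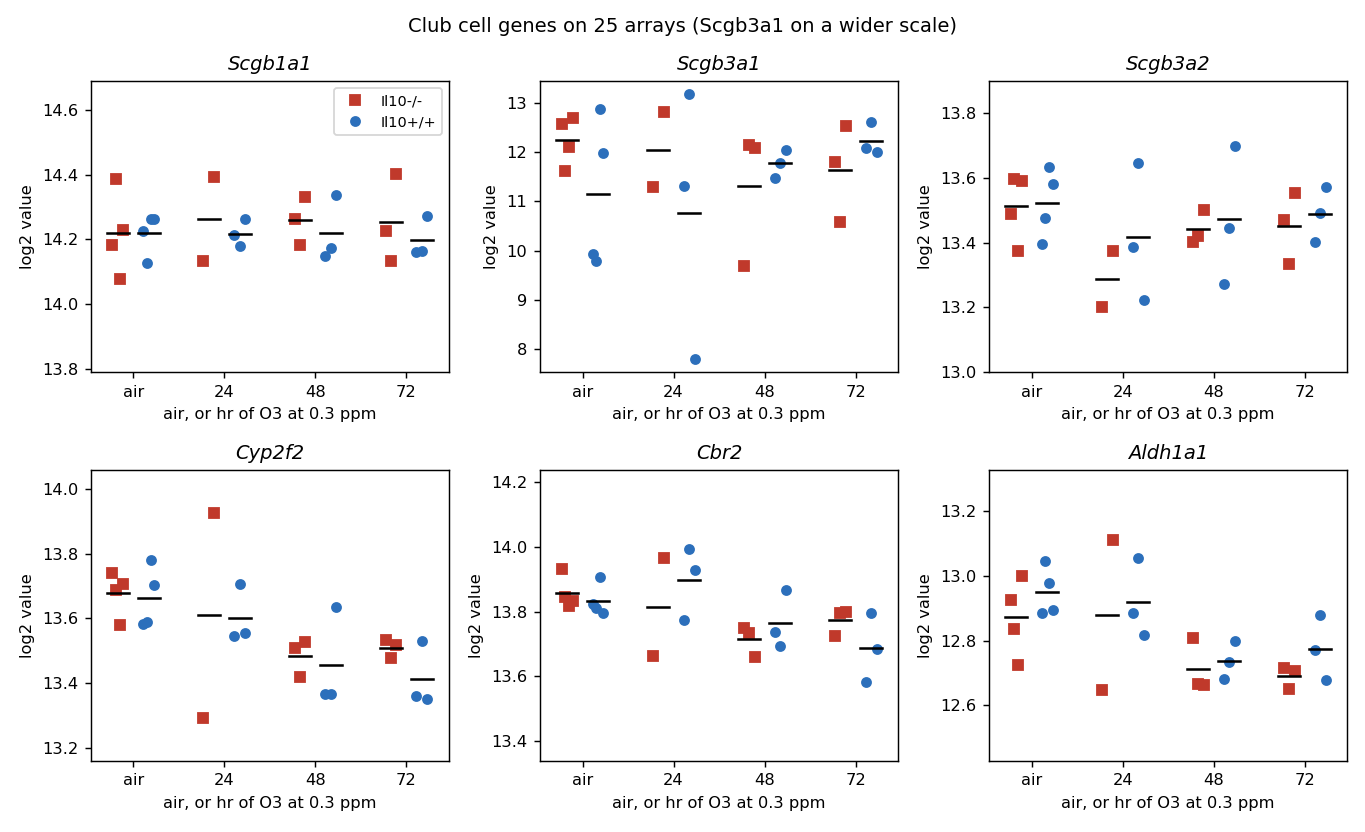
Log2 values of the 6 club cell genes on 25 arrays, by exposure (air, or 24, 48 or 72 hr of 0.3 ppm O3), with Il10-/- mice as red squares and Il10+/+ mice as blue circles; bars mark group means. The scale of 5 panels spans the same number of log2 units, and Scgb3a1, whose values run from 7.80 to 13.17, has a wider scale.

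Cyp2f2 encodes the cytochrome P450 enzyme by which mouse club cells activate naphthalene and related compounds. Log2 values of Cyp2f2 in Il10-/- mice were 13.74, 13.69, 13.58 and 13.71 in air, 13.29 and 13.93 at 24 hr of O3, 13.51, 13.42 and 13.53 at 48 hr, and 13.53, 13.48 and 13.52 at 72 hr. In Il10+/+ mice they were 13.58, 13.59, 13.78 and 13.70 in air, 13.54, 13.71 and 13.56 at 24 hr, 13.37, 13.37 and 13.63 at 48 hr, and 13.36, 13.53 and 13.35 at 72 hr. Below all air arrays of their genotype lay the 3 arrays at 48 hr and the 3 at 72 hr in Il10-/- mice, and the 3 at 72 hr in Il10+/+ mice. The 24 hr arrays of Il10-/- mice stood on both sides of air and were the lowest and the highest of all 25. The change at 72 hr was -0.17 (95% interval -0.40 to 0.06, adjusted p = 0.417) in Il10-/- mice and -0.25 (-0.48 to -0.02, unadjusted p = 0.0331, adjusted p = 0.269) in Il10+/+ mice by limma. At 48 hr it was -0.19 (-0.42 to 0.03, adjusted p = 0.359) and -0.21 (-0.43 to 0.02, adjusted p = 0.364), in the same order of genotypes.

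Cbr2 encodes a carbonyl reductase of the lung that reduces aldehydes and ketones. Log2 values of Cbr2 in Il10-/- mice were 13.93, 13.85, 13.82 and 13.83 in air, 13.66 and 13.97 at 24 hr of O3, 13.75, 13.74 and 13.66 at 48 hr, and 13.73, 13.80 and 13.80 at 72 hr. In Il10+/+ mice they were 13.82, 13.81, 13.91 and 13.80 in air, 13.78, 14.00 and 13.93 at 24 hr, 13.74, 13.69 and 13.87 at 48 hr, and 13.58, 13.80 and 13.69 at 72 hr. As for Cyp2f2, the arrays at 48 and 72 hr in Il10-/- mice lay below all air arrays of their genotype. At 72 hr in Il10+/+ mice the highest O3 value and the lowest air value were both 13.80 and differed only in the fifth decimal, a tie in effect. The change over the 3 times was -0.09 (95% interval -0.22 to 0.05, adjusted p = 0.480) in Il10-/- mice and -0.05 (-0.18 to 0.08, adjusted p = 0.770) in Il10+/+ mice. Between 72 and 24 hr of O3 in Il10+/+ mice the difference was -0.21 (-0.39 to -0.03, unadjusted p = 0.0225, adjusted p = 0.448 by limma).

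Aldh1a1 encodes an aldehyde dehydrogenase that makes retinoic acid from retinaldehyde. Log2 values of Aldh1a1 in Il10-/- mice were 12.93, 12.84, 12.73 and 13.00 in air, 12.65 and 13.11 at 24 hr of O3, 12.81, 12.67 and 12.66 at 48 hr, and 12.72, 12.65 and 12.71 at 72 hr. In Il10+/+ mice they were 12.89, 13.05, 12.98 and 12.90 in air, 12.89, 13.06 and 12.82 at 24 hr, 12.68, 12.74 and 12.80 at 48 hr, and 12.77, 12.88 and 12.68 at 72 hr. The arrays at 72 hr lay below all air arrays in both genotypes, and those at 48 hr did so in Il10+/+ mice. The change at 48 hr was -0.16 (95% interval -0.36 to 0.04, adjusted p = 0.400) in Il10-/- mice and -0.21 (-0.41 to -0.01, unadjusted p = 0.0395, adjusted p = 0.270) in Il10+/+ mice by limma. At 72 hr it was -0.18 (-0.38 to 0.02, adjusted p = 0.309) and -0.18 (-0.38 to 0.03, adjusted p = 0.414), in the same order.

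Counted over the members, the calls and the share of all genes called in the same comparison were as follows. In Il10-/- mice 0 of 6 members passed at 24, 48 and 72 hr of O3, where 2.09%, 6.33% and 5.87% of all genes did. In Il10+/+ mice 0 of 6 passed, where 0.0484%, 3.71% and 3.15% of all genes did. Over the 3 times, 0 of 6 passed in each genotype, against 7.55% of all genes in Il10-/- mice and 3.66% in Il10+/+ mice. At these shares, no call among 6 genes sets the members apart from other genes.

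By overlap, the members below all air arrays of their genotype were 2 of 6 at 48 hr in Il10-/- mice (7.96% of all genes), 3 of 6 at 72 hr in Il10-/- mice (9.4%), 1 of 6 at 48 hr in Il10+/+ mice (8.63%) and 3 of 6 at 72 hr in Il10+/+ mice (8.83%), where Cbr2 counts only by the near tie given above. At 24 hr there were 0 of 6 in either genotype, with 5.81% of all genes in Il10-/- mice and 3.59% in Il10+/+ mice. The members below air were Cyp2f2, Cbr2 and Aldh1a1 throughout, the enzymes of the 6, and no secretoglobin was among them. Scgb3a2 at 24 hr in Il10-/- mice missed only narrowly, with O3 values of 13.2012 and 13.3731 and a lowest air value of 13.3726. Of 6 single-time changes from air, Scgb3a2 and Cyp2f2 had 6 negative, Cbr2 and Aldh1a1 5, Scgb3a1 4 and Scgb1a1 2. The split between enzymes and secretoglobins thus rests in part on narrow gaps. Aldh1a1 at 72 hr counts by the narrow gaps given above in both genotypes. Above all air arrays lay 0 of 6 at 24, 48 and 72 hr, where 11.5%, 8.58% and 11.5% of all genes did in Il10-/- mice. The shares for Il10+/+ mice were 4.4%, 8.92% and 9.34%. Over all O3 arrays of a genotype, 0 of 6 lay below air (1.07% of all genes in Il10-/- mice, 1.26% in Il10+/+ mice) and 0 of 6 above it (1.98% and 1.83%, in the same order). The median change of the members over the 3 times was -0.12 in Il10-/- mice and -0.06 in Il10+/+ mice. For all genes it was -0.01 in each. Of the members' changes 5 of 6 were negative in each genotype, beside 52.4% of all genes in Il10-/- mice and 53.9% in Il10+/+ mice. The positive change was that of Scgb1a1 in Il10-/- mice and of Scgb3a1 in Il10+/+ mice. The 3 enzymes varied together, so their signs do not count as separate. The methods' two-way analysis, at its p of 0.01, likewise passed 0 members for exposure, where 16.2% of all genes passed, with Aldh1a1 at 0.0156, Cbr2 at 0.0319 and Cyp2f2 at 0.0332.

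**Figure D2:**
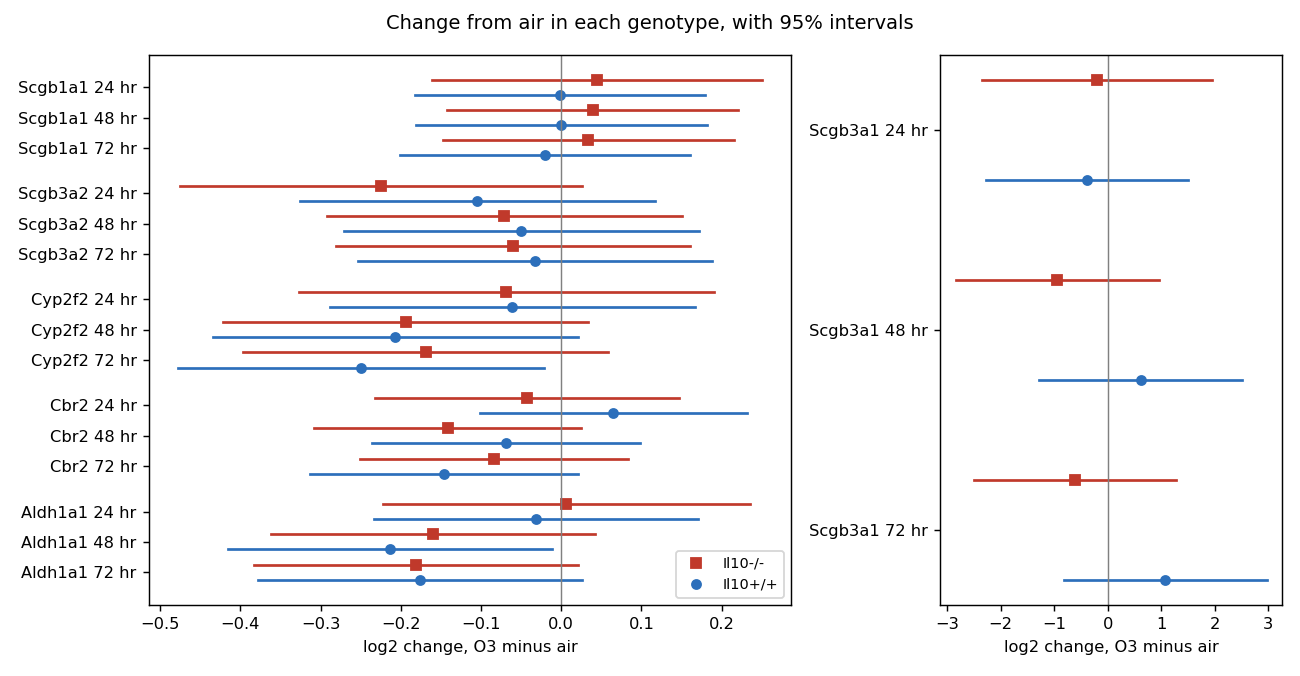
Change from air in log2 units, O3 minus air, at 24, 48 and 72 hr in Il10-/- mice (red squares) and Il10+/+ mice (blue circles), with 95% intervals from the limma fit. The left panel holds the 5 genes of narrow range and the right panel Scgb3a1 on a wider scale. Of the 30 intervals at left 28 include 0, and all 6 at right do.

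Between 72 and 24 hr of O3, 0 of 6 members passed in Il10-/- mice (3.71% of all genes) or in Il10+/+ mice (1.19%). In Il10-/- mice these comparisons, and those with air at 24 hr, rest on 2 arrays that differ in the same direction for all 6 members. Replicate 3 was above replicate 1 by 0.26 for Scgb1a1, 0.17 for Scgb3a2, 1.51 for Scgb3a1, 0.63 for Cyp2f2, 0.30 for Cbr2 and 0.47 for Aldh1a1, while the median over all genes was -0.05. The median of 9 B cell markers differed by -1.12 and that of 3 red blood cell genes by -1.72 between these arrays, and their part in the members' values was not tested. Leaving out either leaves 1 array at 24 hr, which the fit assumes to vary like the arrays of the other groups. On that assumption, Cyp2f2 without replicate 3 had -0.38 at 24 hr (adjusted p = 0.0360) and -0.25 over the 3 times (adjusted p = 0.0178), and without replicate 1 it had -0.04 over the 3 times (adjusted p = 0.825). Over the 3 times Cbr2 had -0.14 without replicate 3 and -0.04 without replicate 1, and Aldh1a1 had -0.19 and -0.03. For 72 against 24 hr without replicate 1, Cyp2f2 and Aldh1a1 had -0.42 each (adjusted p = 0.0280 and 0.0267). With array weights, Cyp2f2 fell at 48 hr in Il10+/+ mice (-0.22, adjusted p = 0.0376 by limma).

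The genotypes were next compared directly. In air, 0 of 6 members passed (0.00807% of all genes), and Scgb3a1 had the largest difference, Il10-/- minus Il10+/+, at 1.09 (95% interval -0.66 to 2.85, adjusted p = 0.846). The other 5 differed by -0.08 to 0.02. At 24, 48 and 72 hr of O3, 0 of 6 passed, where 0.662%, 0.00807% and 0.0242% of all genes did. Averaged over O3, 0 of 6 passed (0.637% of all genes), the differences ran from -0.07 to 0.07, and adjusted p ran from 0.781 to 0.978. Without Scgb3a1, the 25 genotype differences of the other 5 members had 95% intervals reaching from -0.39 to 0.34. By overlap, 0 of 6 members lay wholly above in Il10-/- mice in air or at 24, 48 or 72 hr of O3, where 1.38%, 12.2%, 3.2% and 3.99% of all genes did. Wholly below lay 0 of 6, where 3.05%, 8.65%, 4.91% and 5.45% of all genes did.

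The difference between genotypes in the mean O3 response passed for 0 of 6 members (0% of all genes), and an F test of whether exposure acted differently in the genotypes passed 0 of 6 again (0% of all genes). For Cyp2f2 the response of Il10-/- mice minus that of Il10+/+ mice was 0.03 (95% interval -0.23 to 0.29), for Scgb1a1 0.05 (-0.16 to 0.25), and for Scgb3a1 -1.02 (-3.16 to 1.11). The intervals of Cyp2f2 and Scgb1a1 reach no further than 0.29 on the log2 scale, and that of Scgb3a1 is several times as wide. Scgb1a1 had 2 brighter probe sets on every array and Cyp2f2 had 9 to 47. How far this place on the scale narrowed their intervals was not tested.

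The members varied together to different degrees. Over the 25 arrays, which share their normalization, Cyp2f2 varied with Cbr2 (Pearson's r = 0.83, Spearman's rho = 0.86) and with Aldh1a1 (r = 0.81, rho = 0.84). Without the 2 arrays farthest from the median of Cyp2f2, these were 0.79 and 0.73. Taken as deviations from group means, both were 0.80. Cbr2 and Aldh1a1 had r = 0.71. Over the 25 values r with these enzymes was 0.14 to 0.43 for Scgb1a1, 0.27 to 0.46 for Scgb3a2 and 0.05 to 0.27 for Scgb3a1. As deviations from group means, r with Cyp2f2 was 0.58 for Scgb1a1, 0.63 for Scgb3a2 and 0.45 for Scgb3a1, and the rho of Scgb3a2 with Cyp2f2, 0.71, was above that of Cbr2 (0.66) and Aldh1a1 (0.68). The member most like Scgb3a1 was Scgb3a2 (r = 0.57, rho = 0.53). These correlations are descriptions over arrays and carry no test.

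Among all genes, those most like Scgb3a1 were other secreted defence proteins of the airway surface. They were Bpifb1 (r = 0.91, rho = 0.90) and Bpifa1 (r = 0.90, rho = 0.94), of the family of lipid-binding BPI fold proteins, and Reg3g (r = 0.83, rho = 0.88), an antibacterial lectin. Without the 2 arrays farthest from the median of Scgb3a1, r was 0.93, 0.97 and 0.88 for Bpifb1, Bpifa1 and Reg3g. The same 5 arrays were the lowest of the 25 for all 4 genes: Il10-/- at 48 hr of O3 replicate 1, Il10-/- at 72 hr of O3 replicate 2, Il10+/+ air 24 hr replicates 1 and 2, and Il10+/+ at 24 hr of O3 replicate 3. On them Scgb3a1 was 7.80 to 10.58 and Bpifa1 5.34 to 6.62, and on the other 20 arrays Scgb3a1 was 11.29 to 13.17 and Bpifa1 8.12 to 13.11. Within those 20 arrays r was 0.89 for Bpifb1, 0.94 for Bpifa1 and 0.82 for Reg3g. The 5 arrays came from both genotypes and from air and O3.

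On the same 5 arrays Scgb1a1 was 14.13 to 14.26 and Cyp2f2 13.48 to 13.59, inside the range of the other 20 arrays. Scgb3a2 there was 13.22 to 13.48, and its range over the 25 arrays was 13.20 to 13.70. Muc5b, the gel-forming mucin of airway secretory cells, spanned 6.83 to 9.94 over the 25 arrays and had r = 0.75 with Scgb3a1, or 0.50 without the 5 arrays. As deviations from group means the nearest genes to Scgb3a1 were Fabp4 and Car3 (r = 0.93 each), which are abundant in fat cells, and Bpifb1 (0.92). Car3 spanned 4.23 to 10.68 over the 25 arrays. Over the 25 values, not taken as deviations, r with Scgb3a1 was 0.77 for Car3 and 0.71 for Fabp4. Without the 2 arrays farthest from the median of Scgb3a1 these were 0.54 and 0.59, and without the 5 arrays 0.62 and 0.73. The part of other tissue in the Scgb3a1 values was not tested.

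**Figure D3:**
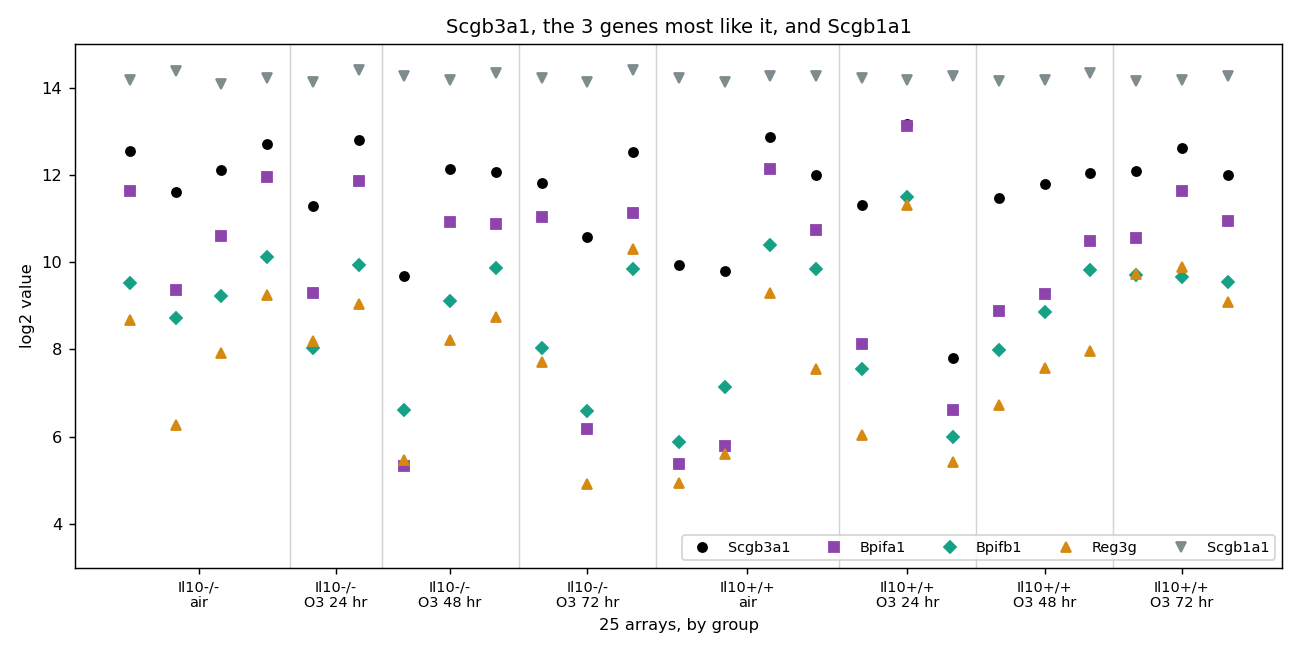
Log2 values of Scgb3a1, Bpifa1, Bpifb1, Reg3g and Scgb1a1 on each of 25 arrays, ordered by group, with grey lines between groups. Scgb3a1 and its 3 nearest genes are low together on the same 5 arrays, while Scgb1a1 stays between 14.08 and 14.40.

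The other members had other neighbours. For Scgb3a2 they were Mns1 (r = 0.80), Lrrc23 (0.75) and Rnf32 (0.75), of which Mns1 and Lrrc23 belong to motile cilia and sperm tails, and as deviations from group means Rsph1 (0.86), of the radial spokes of cilia, Itih2 (0.84) and Slc20a2 (0.82). For Scgb1a1 they were Tpt1 (0.80), Sftpc (0.80), the surfactant protein C gene, and Homer1 (0.78), with Sftpc at 0.89, Ezr at 0.88 and Cdc42ep4 at 0.86 as deviations. Tpt1 and Sftpc also had narrow ranges near the top of the scale, 13.66 to 13.85 and 14.29 to 14.48. For Cyp2f2 they were Cbr2, Epb41l4a (0.81) and Aox3 (0.81), an aldehyde oxidase, and for Aldh1a1 Yap1 (0.83), Vldlr (0.81) and Cyp2f2. For Cbr2 they were Cyp2f2, Coq8a (0.78) and Epb41l4b (0.78).

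Genes beside the 6 in the same cells and pathways changed in small numbers. Of 17 other club cell genes measured, 2 rose and 0 fell in Il10-/- mice over the 3 O3 times (5.27% of all genes rose, 2.28% fell), and 1 rose and 1 fell in Il10+/+ mice (2.74% and 0.92%). Hp, which encodes haptoglobin, rose by 0.34 in Il10-/- mice (adjusted p = 0.00741) and by 0.31 in Il10+/+ mice (adjusted p = 0.0182). Cckar, a cholecystokinin receptor, rose by 0.29 in Il10-/- mice (adjusted p = 0.0176). Pon1, a paraoxonase, fell by 0.61 in Il10+/+ mice (adjusted p = 0.0444 by limma), a call lost on leaving out any of 18 single arrays. The median change of the 17 genes was -0.03 in Il10-/- mice and -0.04 in Il10+/+ mice, beside -0.01 for all genes.

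Of 23 enzymes of phase I and II metabolism of lung, 2 rose and 1 fell in Il10-/- mice, and 1 rose and 1 fell in Il10+/+ mice. Akr1b8, an aldo-keto reductase, rose by 1.46 in Il10-/- mice (adjusted p = 5.35e-07) and by 1.13 in Il10+/+ mice (adjusted p = 8.79e-06). Nqo1, the quinone oxidoreductase, rose by 0.56 in Il10-/- mice (adjusted p = 0.0230). Ephx1, the microsomal epoxide hydrolase that acts on products of cytochromes P450, fell by 0.41 in each genotype (adjusted p = 0.00658 in Il10-/- mice and 0.00906 in Il10+/+ mice by limma). Cyp2f2 itself, the P450 of the members, had -0.14 and -0.17 with adjusted p of 0.384 and 0.326, in the same order. Of 17 retinoid genes, the pathway of Aldh1a1, 1 fell in Il10-/- mice, Rarres2 by 0.33 (adjusted p = 0.0377, lost on leaving out any of 6 arrays), and 0 passed in Il10+/+ mice, where Aldh1a1 had -0.14.

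Of 15 airway transcription factors, 1 rose in each genotype, Elf3, an epithelial ETS factor, by 0.50 in Il10-/- mice (adjusted p = 0.0146) and by 0.52 in Il10+/+ mice (adjusted p = 0.0146). Of 8 ciliated cell markers, 1 fell in each, Tppp3, a tubulin-binding protein, by 0.72 in Il10-/- mice (adjusted p = 0.000722) and by 0.54 in Il10+/+ mice (adjusted p = 0.0126 by limma). Of 12 goblet cell and 7 basal cell markers 0 passed in either genotype. Both lists were low, with list means per array of 5.06 to 6.43 for goblet and 4.56 to 4.80 for basal markers. At such levels a change is hard to detect. Single air arrays decided part of the calls named so far. In Il10+/+ mice Elf3 and Hp were lost without air 24 hr replicate 1 or 2, and Ephx1 without replicate 2. Hp was lost also without air 48 hr replicate 2, and Tppp3 without air 48 hr replicate 1. In Il10-/- mice Elf3 and Cckar were lost without the library labelled Il10-/- air 48 hr replicate 1, and Nqo1 without air 24 hr replicate 1 or 2.

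Markers of other cells and tissues moved with O3 in Il10-/- mice. Of 8 heart muscle markers 3 fell over the 3 times (2.28% of all genes fell, 5.27% rose), with a mean level of the list at 6.82 to 8.42 on O3 arrays and 8.31 to 9.01 on air arrays. Of 12 endothelial markers 3 fell, of 7 alveolar type 1 markers 1 fell, and of 9 macrophage and 9 neutrophil markers 1 each rose. The heart muscle calls, Myl4, Tnni3 and Actc1, were all lost without Il10-/- air 24 hr replicate 1, and all lost without the library labelled Il10-/- air 48 hr replicate 1. Of the endothelial calls Tie1 and Cldn5 were both lost without Il10-/- air 24 hr replicate 1 or 2 or air 48 hr replicate 2, and the macrophage call, Marco, was lost on leaving out any of 16 single arrays. Of 10 alveolar type 2 markers 1 rose, Sftpd, which encodes surfactant protein D, by 0.32 (adjusted p = 0.00561 by limma). Over the 3 times none of these lists had a call in Il10+/+ mice, where 1 endothelial marker fell at 48 hr. Averaged over O3, 5 of 9 neutrophil markers were higher in Il10-/- than in Il10+/+ mice, of which Mmp8 was lost on leaving out any of 17 single arrays. Their part in the members' values was not tested.

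The left-out array of Il10-/- mice at 24 hr of O3, replicate 2, was low in all 6 members. Its log2 values were 8.43 for Scgb1a1, 5.29 for Scgb3a1, 5.10 for Scgb3a2, 4.51 for Cyp2f2, 5.93 for Cbr2 and 10.64 for Aldh1a1. They lay below the lowest of the other 25 arrays, with differences of -5.65, -2.51, -8.10, -8.79, -7.66 and -2.01 in the same order of genes. The array was then set against the mean of replicates 1 and 3. Lower there by more than 1 were 15 of 17 other club cell genes and 10 of 10 alveolar type 2 markers. So were 7 of 7 alveolar type 1, 11 of 12 endothelial, 3 of 12 goblet and 0 of 7 basal cell markers. Medians over the 25 arrays were 4.21 to 5.28 for the basal markers, which left little room for such a fall. The goblet markers of highest median were Bpifb1 (9.22), Muc5b (8.58), Tff2 (6.78) and Fcgbp (6.46). On the left-out array these were at 4.93, 5.83, 5.25 and 5.56. The other goblet markers had medians no higher than 5.08. Higher by more than 1 were 8 of 9 B cell and 8 of 9 T cell markers. Of all 12394 genes, 1621 were lower and 1624 higher by more than 1, so the array differed well beyond the members. With this array in the fit, the change of the members over the 3 times in Il10-/- mice ran from -1.33 for Scgb3a1 to -0.36 for Aldh1a1, and 0 of 6 passed. The correlation of Cyp2f2 with Cbr2 was then 0.999, so that 1 array set it.

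**Figure D4:**
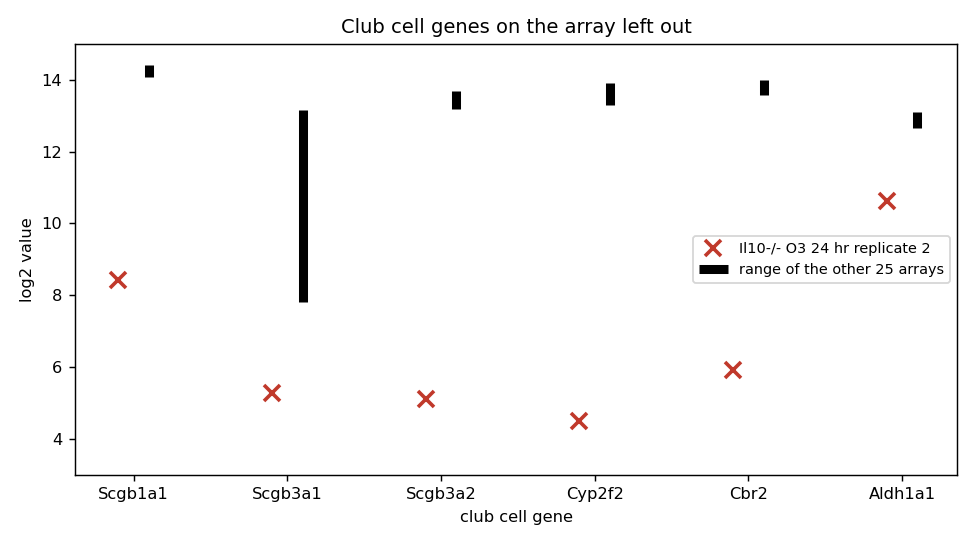
Log2 value of each of the 6 club cell genes on the left-out array, Il10-/- at 24 hr of O3 replicate 2 (red crosses), beside the range of the other 25 arrays (black bars). All 6 crosses lie below their bars, Cyp2f2 by the most and Aldh1a1 by the least.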

How the data were processed

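Left lobes of lung were profiled on 26 Affymetrix mouse arrays. The deposited values are log2 expression, which the authors computed with RMAExpress by RMA, a method that corrects background, equalises the arrays' quantiles and summarises the probes of a set (version not given in the sources used here). No depth applies to arrays, and their number limits the precision. Genes were named with the platform annotation; 691 probe sets with several symbols and 1606 unlisted were left out, and each gene was read from its probe set of highest mean. Promoters are RefSeq's, in GRCm38.p6 coordinates.

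Tests used limma 3.58.1 (R 4.3.3) on 25 arrays, with 1 mean per group, empirical Bayes moderation and Benjamini-Hochberg adjustment over 12394 genes at 0.05. The left-out array clusters apart; the study's methods left out 1 array of this group, without naming it. Replicates are called biological in the series text, which ties no array to an animal, and p-values measure the spread between arrays. The steps were tested on simulated data. Figures used matplotlib 3.10.9 in Python 3.11.15.

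The members and gene lists were chosen with earlier results of these data known. Named are the members, up to 4 genes of each list past the threshold, and the 3 genes most like each member. Car3, Muc5b and the pairs' checks were chosen after values were seen. Alternatives tried were all 26 arrays, air of the same time, a fit on the compared arrays alone, weights per array, a covariate for the letter c in 5 source names, the replicate number as a block, 4131 genes of low mean left out, median centring, averaged probe sets, each probe set alone, and each array left out.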

Additional observations from a re-analysis of the deposited data

How the results depend on the processing

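The count of members called was 0 in all 17 comparisons, and it moved in 4 of 582 repeats. With array weights it was 1 at 48 hr of O3 in Il10+/+ mice (Cyp2f2). Leaving out single arrays gave 0 to 1 at 24 hr and over the 3 times in Il10-/- mice (1 being Cyp2f2, without Il10-/- O3 24 hr replicate 3), and 0 to 2 for 72 against 24 hr in Il10-/- mice (2 being Cyp2f2 and Aldh1a1, without O3 24 hr replicate 1). These fits hold a single array at 24 hr of O3 in Il10-/- mice and take its spread from the other groups. The change of Scgb1a1 over the 3 times turned sign in Il10-/- mice, to -0.61 with all 26 arrays, -0.019 with the replicate block and -0.029 with the letter c as covariate, and single arrays left out gave -0.0077 to 0.095. For Il10+/+ mice the letter gave 0.0058 and single arrays -0.038 to 0.0069. Scgb3a1 in Il10+/+ mice ran from -0.010 to 1.01 without single arrays. All these had adjusted p above 0.05. With all 26 arrays Hp, Cckar and Sftpd turned to -0.27, -0.24 and -0.63 in Il10-/- mice, none called. The Il10-/- calls of Ephx1, Rarres2, Elf3, Tppp3, Cav1, Tie1, Pecam1, Cldn5, Marco, Mmp8, Myl4 and Actc1 and the Il10+/+ calls of Pon1, Hp, Akr1b8, Ephx1, Elf3 and Tppp3 were lost too. A fit on the compared arrays alone lost Hp, Ephx1, Rarres2, Sftpd, Cav1, Tie1, Cldn5, Marco and Actc1 in Il10-/- mice. The letter c lost Cckar, Rarres2, Sftpd, Marco, Mmp8, Myl4, Tnni3 and Actc1 there and Pon1 in Il10+/+ mice. This letter was on Il10-/- air 24 hr replicate 1 and air 48 hr replicates 1 and 2. It was also on Il10-/- O3 24 hr replicate 1 and Il10+/+ O3 72 hr replicate 3. In Il10-/- mice it thus lay mostly on air arrays, and that fit could not fully separate it from O3. Array weights lost Cckar, Nqo1, Elf3, Tie1, Cldn5 and Marco in Il10-/- mice, and S100a8, a neutrophil marker, between genotypes over O3. The replicate block lost Marco, Myl4 and Actc1 in Il10-/- mice.

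The replicate number was not taken to pair samples in the main fit, since not every same-numbered pair correlated above 0.1. A block could be present and still fail that rule. Deviations of arrays of the same number had a median correlation of 0.10, with 50 of 96 above 0.1, and those of different numbers -0.06, with 28 of 184 above 0.1. Deviations within a group cancel out, so the values of same and different numbers depend on each other. By these values same-numbered arrays were more often alike, so a structure by replicate number was not excluded. The block for this number changed no count of members. Counts over all genes moved more. Over the 3 times, 936 genes in Il10-/- mice became 302 to 1975 over the alternatives, and 454 in Il10+/+ mice became 21 to 1628, with the lowest of each for all 26 arrays. At 24 hr in Il10-/- mice 259 became 0 to 1593, with 0 for a fit on the compared arrays alone and for array weights. With 2 to 4 arrays per group, the changes seen in the 5 members other than Scgb3a1 were not separated from the spread between arrays in the main fit.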
